A study of Mus musculus with 22 samples.

Results

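The comparison described here sets control EPCAM+ tumour cells sorted at day 8 against control EPCAM+ tumour cells sorted at day 0, with 2 libraries at each day. The 4 libraries were taken by their labels (line, day, EPCAM gate and sample number) out of 22 RNA-seq libraries in 11 groups. The libraries set beside them are 2 of control EPCAM- cells at day 8 and 8 of EPCAM+ cells at day 8 from 4 CRISPR/Cas9 knockout lines, of Pitx1, Klf5, Nfatc1 and Creb3l1 in turn. The EPCAM- libraries of the same knockout lines enter the model fit and the ranges over all day 8 libraries. The genotype that all groups share includes Lgr5CreER, in which a Cre recombinase that tamoxifen switches on is placed at Lgr5, p53 fl/fl and Rosa26-YFP+/+. The cells were lines grown from a primary tumour of such a mouse and were sorted as living single cells positive for mCherry, YFP and, in the groups compared here, EPCAM. The labels do not say what happened at day 0, what the control line carries beyond its name, or if both libraries of 1 group share a culture or a clone. The p-values and standard errors (SE) below therefore measure only the spread between libraries of the same group, which may be technical. Unless the 4 libraries alone are named, that spread is pooled over all 11 groups.

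EPCAM is a cell surface adhesion protein of epithelial cells. In the epithelial-mesenchymal transition (EMT), epithelial cells lose junctions and keratins and take up a motile, matrix-producing state under transcription factors such as Snai1, Zeb1 and Twist1. Carcinoma cells can stop part of the way, keeping EPCAM and some keratins while expressing vimentin and other mesenchymal genes. A day 0 and day 8 pair of EPCAM+ samples shows what differs between the days among cells that carry EPCAM on both.

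Values are read counts that the authors scaled to a nearly common total in every library, called normalised read counts below. A step of 1 read was worth 2.61 to 3.05 units in the 4 libraries, which held 6554805 to 7662489 reads in genes and detected 20473 to 21415 genes. Mitochondrially encoded genes took 1.76 to 2.73% of a library and the 10 most abundant genes 8.39 to 11.0%, and the second library of day 0 had the lowest mitochondrial share and the highest share of the 10 most abundant genes. Of defining markers of other cell types, Cd3e, Tyrobp, Ncr1 and Nkg7 (leukocytes), Thy1 (fibroblasts), Tek and Cldn5 (endothelium) and Dct, Tyr, Tyrp1, Mlana and Sox10 (melanocytes) were at 0 in all 4 libraries. Summed over the list, leukocyte markers reached 162 and 234 units at day 0 and 225 and 211 at day 8, mostly from Csf1r, which encodes a receptor for colony-stimulating factor. Fibroblast markers summed to 196 and 90 units at day 0 and to 328 and 288 at day 8, mostly from Col1a1 and Col3a1, which encode collagen chains that mesenchymal tumour cells can also make. Endothelial markers summed to 127 and 80 units at day 0 and to 135 and 104 at day 8. Melanocyte markers summed to 43 and 10 units at day 0 and to 42 and 6 at day 8, from Pmel. The part of other cells in the differences below was not tested.

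Epcam, on chromosome 17, was at 5816 and 5917 normalised read counts at day 0 and at 6153 and 5633 at day 8. The values interleave, and the log2 difference was 0.0052 with a 95% interval of -1.35 to 1.36. The width of that interval reflects the spread pooled over all groups of the series, and not these 4 libraries alone. In the control EPCAM- cells of day 8 Epcam was at 180 and 441, far under all 4 EPCAM+ libraries, so the gate is visible in the transcript. The genes knocked out elsewhere in the series were present here: Pitx1 was at 5494 and 5456 at day 0 and at 5432 and 4358 at day 8, Klf5 at 2613 and 1535 against 2585 and 1733, and Nfatc1 at 844 and 605 against 817 and 488. Creb3l1 was close to the limit of detection, with 12 and 7 units at day 0 and 0 in both libraries of day 8, and 3 reads correspond to 7.83 to 9.15 units. None of these 5 genes was called different between the days.

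Few if any genes differed between the days by more than the spread between libraries. Each gene was tested with limma, a linear model on log2(value + 1) fitted over all 22 libraries, and a gene was called at a Benjamini-Hochberg adjusted p below 0.05. Of 19569 genes tested, 0 were called (0.0%), while 831 had an unadjusted p below 0.05 (4.25%). Of these, 472 were higher (2.41%) and 359 lower (1.83%) at day 8. Where no gene differs, 5% of genes are expected under that unadjusted threshold, and 4.25% is below this share. The fit was repeated with the sample number of the labels as a block. It called 2 genes (0.0102%), Hes1 and Nr4a2, both higher at day 8. On reads recovered from the values, limma's voom fit called 0 genes, with 660 at an unadjusted p below 0.05. In bulk samples fewer cells with a transcript and less of it per cell cannot be told apart, in these results and all that follow. A separate description counts genes whose day 8 libraries both lay above both day 0 libraries, which held for 2892 genes (14.8%), or both below, which held for 2812 (14.4%), together 29.1% of those tested. These shares are the background for the counts of gene groups below.

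The day 8 minus day 0 difference was also taken within each same-numbered pair, for the 12784 genes whose higher group averaged 50 or more. Across these genes, which are not independent of one another, the differences of the first and second pair had a Pearson correlation of 0.11. With the day 0 libraries swapped between the pairs the correlation was -0.27. The second pair differed more, with 1000 genes changed at least 2-fold against 271 in the first, and an SD of the log2 difference of 0.61 against 0.36. Replicates of the same day differed as widely, with an SD of 0.52 between the day 0 libraries and of 0.66 between the day 8 libraries. At least 2-fold in both pairs, 42 genes were higher at day 8, 46 were lower and 39 went opposite ways.

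**Figure D1:**
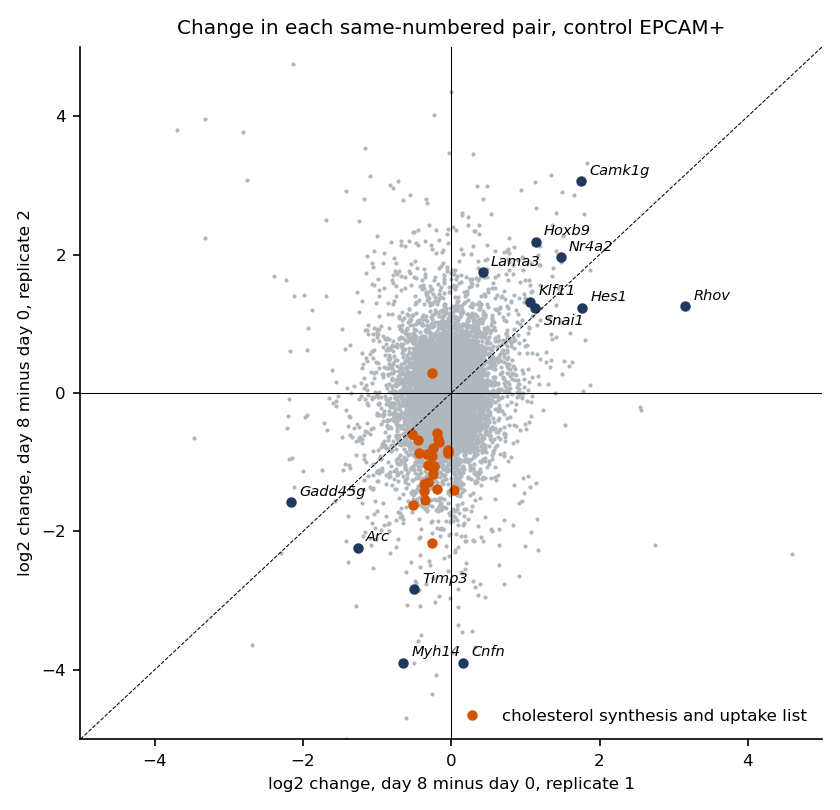
Log2 change from day 0 to day 8 in the first same-numbered pair (x axis) against the second (y axis), 1 grey point per gene with a mean of at least 50; 6 of 12784 genes lie outside the axes. Named genes are dark, the 25 genes of cholesterol synthesis and uptake are orange where they pass that mean, and the dashed line marks equal changes: Hes1, Nr4a2, Klf11 and Snai1 lie near it at upper right and Gadd45g near it at lower left, whereas Cnfn, Myh14 and Timp3 differ mainly in the second pair.

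Hes1, a transcriptional repressor switched on by Notch signalling and one of its classic targets, had 1147 and 1410 normalised read counts at day 0 and 3913 and 3322 at day 8. Both day 8 libraries were well above both day 0 libraries, and the mean was 2.83-fold higher. The log2 difference was 1.50 ± 0.24 (SE, n = 2 against 2), with a limma adjusted p of 0.0659, which misses the threshold. In the fit with the sample number as a block the gene rose with a limma adjusted p of 0.0259, and in the voom fit with the block of 0.0367, while the block fit on the 4 libraries alone gave 0.851. Hes1 lies at chr16:30064384-30067796 on GRCm38 (GENCODE M21, plus strand).

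Of 23 Notch pathway genes tested, Hes1 among them, 3 were above the day 0 range in both day 8 libraries and 2 below it, which is 13.0% and 8.70% of the list beside 14.8% and 14.4% of all genes. The list median was a log2 difference of -0.016. The receptor gene Notch1 was at 1590 and 2463 at day 0 and at 1799 and 1920 at day 8, and Notch2 at 4734 and 5349 against 5594 and 5087. Rbpj, the DNA-binding partner of cleaved Notch, was at 9070 and 7156 against 8235 and 9783, and the feedback target Nrarp at 1127 and 730 against 1389 and 861. All of these overlap between the days. The ligand gene Jag1 was at 1197 and 1300 at day 0 and at 998 and 5498 at day 8, high in 1 day 8 library alone. Other targets were nearly silent: Hes5 and Heyl were at 0 in all 4 libraries, Hey2 had 1 value above 0, of 3 units, and Hey1 reached at most 11.

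Nr4a2, an orphan nuclear receptor of the immediate early class, which cells induce within minutes of a stimulus, had 197 and 144 normalised read counts at day 0 and 549 and 566 at day 8. The day 8 values lie close together and far above day 0, a 3.27-fold higher mean. The log2 difference was 1.72 ± 0.27 (SE, n = 2 against 2), the limma adjusted p was 0.0659, and with the sample number as a block the gene rose with a limma adjusted p of 0.0281. That call was lost in the voom fit with the block (adjusted p = 0.165) and in the block fit on the 4 libraries alone (adjusted p = 0.851). Nr4a2 lies at chr2:57106830-57124003 on the minus strand. Induction of Nr4a genes through cyclic AMP runs, as background, through CREB binding to the site TGACGTCA or its shorter form TGACG. The 300 bases around the start, 250 before and 50 after (RefSeq, GRCm38.p6, chr2:57123954-57124253, minus strand, 5′ to 3′), are printed because Nr4a2 is 1 of the 2 genes called in the block fit, with TGACG in capitals, or CGTCA where it reads on the opposite strand:
Nr4a2: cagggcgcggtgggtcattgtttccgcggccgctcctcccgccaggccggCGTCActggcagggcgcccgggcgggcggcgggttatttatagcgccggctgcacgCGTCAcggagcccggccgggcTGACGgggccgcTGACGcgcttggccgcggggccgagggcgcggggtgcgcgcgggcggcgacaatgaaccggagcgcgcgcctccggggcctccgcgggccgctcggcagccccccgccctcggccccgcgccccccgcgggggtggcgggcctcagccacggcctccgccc
The window held 4 copies of TGACG and 0 of TGACGTCA, counted on both strands. Over 32851 windows of the same length, 20.8% held TGACG and 1.79% held TGACGTCA. A match of letters is a description and not a measured binding site.

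Among 28 immediate early genes Nr4a2 was the only one called in the main fit or with the block. In the list 4 genes lay above and 6 below the day 0 range (14.3% and 21.4%, beside 14.8% and 14.4% of all genes), and the median log2 difference was -0.13. Nr4a1, its closest relative here, was at 578 and 406 at day 0 and at 1235 and 396 at day 8, and Nr4a3 stayed at 8 units or less. Fos, an inducible subunit of the AP-1 transcription factor, was at 3815 and 3131 at day 0 and at 1778 and 729 at day 8, lower in both day 8 libraries. Its partner gene Jun was at 1379 and 1538 against 1272 and 1676. Arc, a neuronal immediate early gene that is low here, was at 59 and 46 against 24 and 9, a log2 difference of -1.75 ± 0.48 (SE, n = 2 against 2; limma adjusted p = 0.761). Myc, the growth-promoting transcription factor, was at 4432 and 5154 against 3154 and 2810, and both values of day 8 were lower. Its log2 difference was -0.68 ± 0.24 (SE, n = 2 against 2), not called.

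Gadd45g, a stress-inducible gene of the growth arrest family that promotes p38 and JNK signalling, had 530 and 422 normalised read counts at day 0 and 118 and 141 at day 8. The day 8 mean was 3.68-fold lower and the groups were far apart. The log2 difference was -1.87 ± 0.32 (SE, n = 2 against 2), with a limma adjusted p of 0.0846 and of 0.0671 with the sample number as a block, so the gene was called in neither. Its relative Gadd45b was at 690 and 589 against 473 and 274. Klf11, a Krüppel-like repressor induced by TGF-beta and chosen after its values were seen, was at 298 and 321 at day 0 and at 624 and 804 at day 8, a log2 difference of 1.19 ± 0.22 (SE, n = 2 against 2; limma adjusted p = 0.113).

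These 4 genes were next read in every group. Over the 20 day 8 libraries, EPCAM+ and EPCAM- and control and knockout, Hes1 ranged from 2527 to 5614 (median 3268), and the lowest was above both day 0 libraries. Nr4a2 ranged from 359 to 686 (median 537), Klf11 from 624 to 1266 (median 949), and Gadd45g from 78 to 230 (median 139), each again clear of both day 0 libraries. Every one of these day 8 values was compared with the same 2 day 0 libraries, so the separation rests on those 2. Of all genes tested, 326 (1.67%) had every day 8 library above both day 0 libraries and 375 (1.92%) had every one below. With a mean of at least 50 and predicted genes left out, 188 genes were in the first class and 272 in the second. In the control EPCAM- cells Hes1 was at 2853 and 3213 inside the range of the EPCAM+ libraries of that day, and Nr4a2 at 536 and 686, of which the second was above the highest EPCAM+ library at 660.

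**Figure D2:**
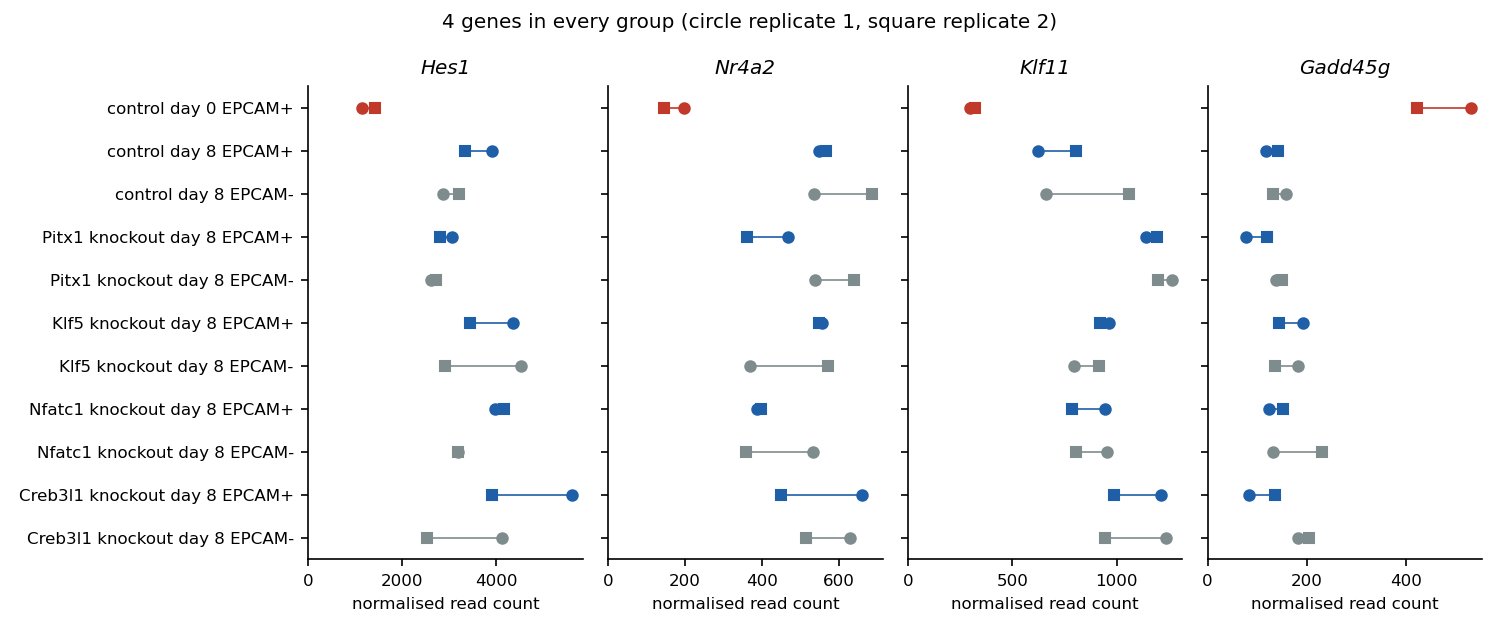
Normalised read counts (x axis, linear, from 0) of Hes1, Nr4a2, Klf11 and Gadd45g in each of the 11 groups, with a circle for the first and a square for the second library and a line joining them. Day 0 (red) lies apart from every day 8 group, EPCAM+ (blue) and EPCAM- (grey): Hes1 at 1147 and 1410 against at least 2527, Gadd45g at 530 and 422 against at most 230.

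The broadest difference across a gene list was in cholesterol synthesis and uptake, a list chosen with earlier results of these data known. SREBP2, encoded by Srebf2, is the factor that turns these genes on when membrane sterol runs low. All 25 genes of the list were tested, 0 were called, and 22 (88.0%) had both day 8 libraries below both day 0 libraries, beside 14.4% of all genes, with 0 above. The median log2 difference was -0.64, 24 of 25 genes were negative and 11 had an unadjusted p below 0.05; over all tested genes the median was 0. The genes of 1 pathway share libraries and regulation and are not independent counts. Summed over the list, the values were 43130 and 64404 at day 0 and 36649 and 35849 at day 8, so the second day 0 library stood above the other 3. Within the first pair the list median was -0.25 and within the second -0.91, and it was -0.33 without the second and -0.97 without the first day 0 library.

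By step of the pathway, Hmgcs1, which makes an early intermediate, was at 1946 and 3195 at day 0 and at 1634 and 1413 at day 8, a log2 difference of -0.71 ± 0.26 (SE, n = 2 against 2). The mevalonate kinases Mvk and Pmvk were at 474 and 742 against 413 and 282, and at 370 and 702 against 288 and 239. In each of these, all day 8 values lay below the lower day 0 value. Mvd, which forms isopentenyl pyrophosphate, was at 160 and 422 against 134 and 93, the largest difference in the list (log2 -1.21 ± 0.48, SE, n = 2 against 2). Idi1, the isomerase of that product, was at 945 and 1422 against 757 and 691, and Fdps, which joins the units into farnesyl pyrophosphate, at 1929 and 4025 against 1350 and 1313. Fdps shares 1124 exon bases with a readthrough gene on the same strand, so its reads can be split between them. Dhcr7, which makes the final product from its precursor, was at 1811 and 2426 against 1251 and 1616. Srebf2 was at 5954 and 8654 against 5769 and 4911. Sqle, the squalene epoxidase, was the exception to the sign, at 1918 and 2933 against 1608 and 3598.

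The promoters of Hmgcs1 and Idi1 are shown because both genes lie in this list and below the day 0 range in both day 8 libraries; SREBP2 acts, as background, on sterol response elements together with the factor NF-Y, which binds CCAAT. Both windows run from 250 bases before the start to 50 after it (RefSeq, GRCm38.p6, plus strand, 5′ to 3′), at chr13:119690101-119690400 for Hmgcs1 and chr13:8885356-8885655 for Idi1. Capitals mark CCAAT, here always read as ATTGG from the opposite strand, and the sterol response element core CACCCCAC:
Hmgcs1: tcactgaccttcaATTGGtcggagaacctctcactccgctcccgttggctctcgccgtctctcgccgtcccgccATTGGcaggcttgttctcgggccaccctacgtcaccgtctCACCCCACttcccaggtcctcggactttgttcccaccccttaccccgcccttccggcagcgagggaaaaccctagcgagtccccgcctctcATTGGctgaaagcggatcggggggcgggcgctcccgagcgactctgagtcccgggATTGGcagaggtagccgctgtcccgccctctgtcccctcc
Idi1: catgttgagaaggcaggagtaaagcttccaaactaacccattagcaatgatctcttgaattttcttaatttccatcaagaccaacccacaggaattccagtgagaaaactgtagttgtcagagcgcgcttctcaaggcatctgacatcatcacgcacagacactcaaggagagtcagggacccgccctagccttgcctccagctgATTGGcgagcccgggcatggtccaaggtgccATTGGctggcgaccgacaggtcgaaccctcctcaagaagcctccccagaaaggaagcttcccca
On both strands Hmgcs1 held 4 copies of CCAAT and 1 of CACCCCAC, and Idi1 held 2 and 0. Of the 25 list genes 17 had a promoter window, with 20 windows in total. A gene was counted if any of its windows matched, and 16 genes had CCAAT and 2 had CACCCCAC. Counted per window and not per gene, 37.4% and 2.87% of all 32851 windows held these letters, so the shares are not alike in unit.

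Fatty acid synthesis differed less. Of 13 genes tested, 4 (30.8%) were below the day 0 range in both day 8 libraries and 0 were above. Over all genes these shares were 14.4% and 14.8%. The median log2 difference of the list was -0.21. The median was -0.11 and -0.42 within the pairs, and its sign turned without the second day 0 library (0.073) and without the first day 8 library (0.023). Scd1, the desaturase that makes oleic acid, was at 3302 and 5718 at day 0 and at 1512 and 2491 at day 8, and its relative Scd2 at 24665 and 39587 against 17045 and 22973. Fasn, the fatty acid synthase, was at 11268 and 20871 against 10752 and 12731. Fasn overlaps between the days, and its second day 0 library was the highest. Of 6 genes of cholesterol efflux, 1 lay below the day 0 range, and the median was -0.13. Lpl, which encodes lipoprotein lipase, was low at 54 and 55 units at day 0 and at 0 and 33 at day 8.

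**Figure D3:**
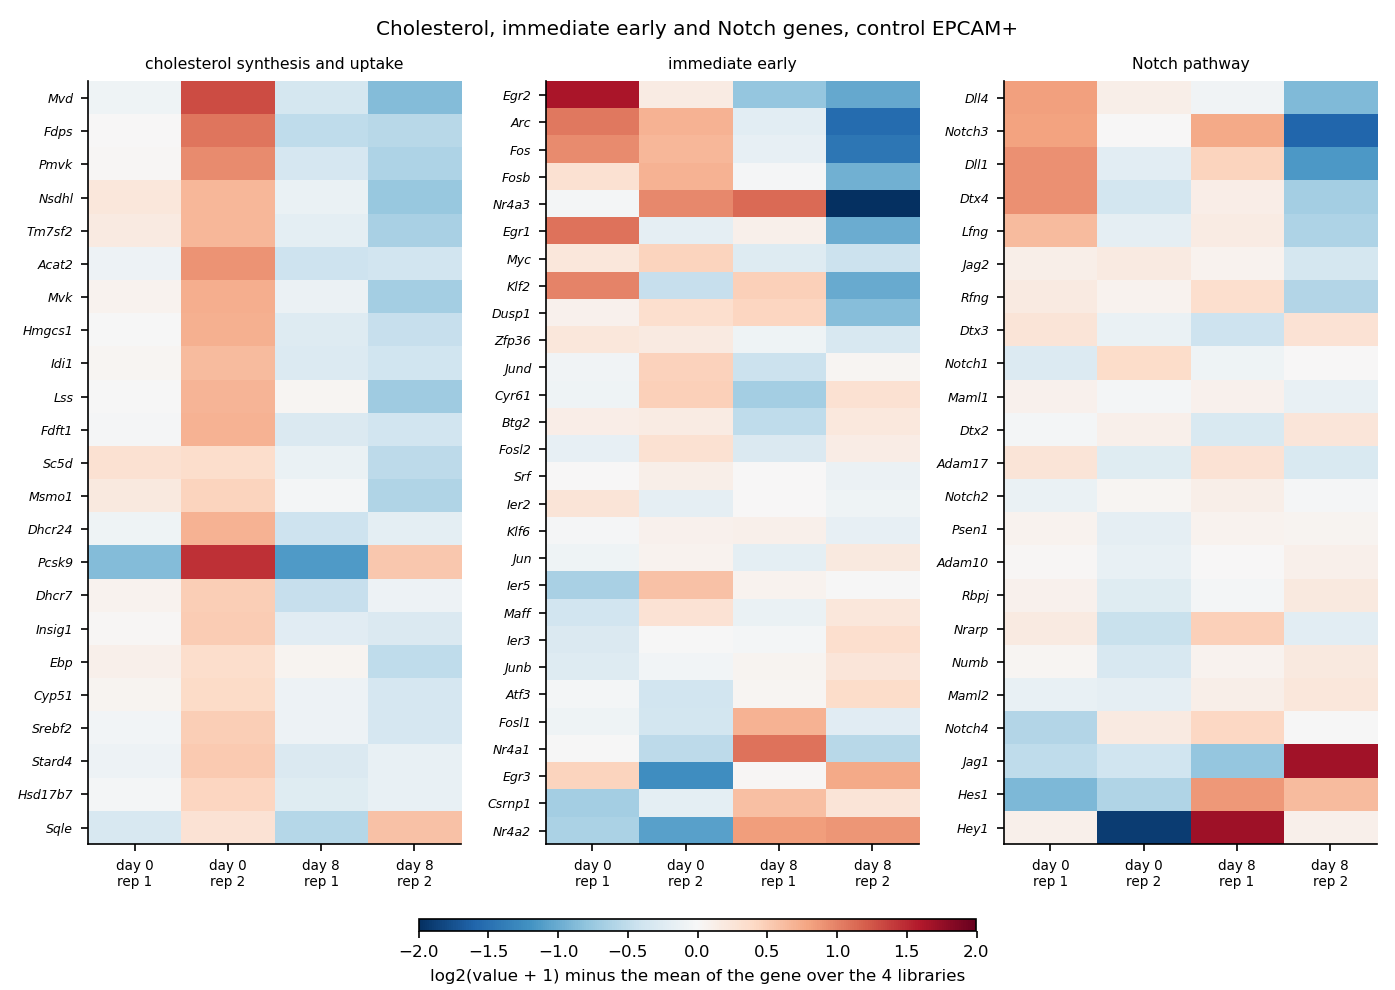
Log2(value + 1) of each gene minus its mean over the 4 libraries (colour, from -2 to 2), for tested genes of the cholesterol, immediate early and Notch lists, with 1 column per library and genes ordered by the fitted difference. The second day 0 library is the reddest column of the cholesterol panel, Nr4a2 ends the immediate early panel with both day 8 columns red, and Hes1 stands near the end of a Notch panel in which most genes are pale.

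Epithelial genes were lower mainly in the second day 8 library. Of 39 genes of junctions and polarity that were tested, 13 (33.3%) were below the day 0 range in both day 8 libraries and 0 above. Over all genes these shares were 14.4% and 14.8%. The list had a median log2 difference of -0.27 and 0 genes called. The median was -0.033 within the first pair and -0.52 within the second, and it ran from -0.49 to -0.13 as 1 library was left out, highest without the second day 8 library. Cdh1, which encodes E-cadherin, was at 3431 and 4144 at day 0 and at 2903 and 2512 at day 8. Cldn7, a tight junction claudin, was at 2094 and 3424 against 2334 and 1376, and Ocln, which encodes occludin, at 830 and 934 against 870 and 442. Ppl, which encodes periplakin of the desmosome plaque and cornified envelope, was at 5158 and 3134 against 5043 and 758. In all of these the second day 8 library was the lowest of the 4. Tjp1, which encodes the scaffold ZO-1, overlapped at 11554 and 9520 against 11365 and 9951, and F11r, a junctional adhesion molecule, was at 2386 and 2133 against 2352 and 2491.

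The transcription and splicing factors that maintain the epithelial state had a median log2 difference of -0.24, with 13 genes negative and 0 called. Of 16 tested, 5 (31.3%) lay below the day 0 range and 0 above, beside 14.4% and 14.8% of all genes. The median was -0.012 within the first pair and -0.49 within the second. Esrp1, an epithelial splicing regulator, was at 3058 and 3165 at day 0 and at 3031 and 2889 at day 8. Grhl2, which activates junction genes, was at 1626 and 1926 against 1739 and 1365. Klf4, a regulator of epidermal differentiation, separated the sample numbers and not the days, at 2198 and 940 against 2425 and 585.

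Among keratins, Krt19, a simple epithelial keratin, was lower in both day 8 libraries, at 889 and 1078 normalised read counts at day 0 and 658 and 252 at day 8. Its log2 difference was -1.26 ± 0.43 (SE, n = 2 against 2), not called, and all 20 day 8 libraries (113 to 658) were below day 0. Krt8 and Krt18, which pair into the main simple keratin filament, were at 15486 and 16544 against 19245 and 12292, and at 12972 and 12398 against 15536 and 10048. Krt14, a keratin of basal keratinocytes, was at 7128 and 5059 against 12774 and 2006, so the day 8 libraries lay on either side of day 0. The stress keratins Krt6a and Krt16 did the same, at 791 and 260 against 1415 and 157 and at 73 and 62 against 434 and 52. Cnfn, which encodes cornifelin of the cornified envelope, was at 819 and 714 against 917 and 47. Of 15 squamous differentiation genes tested, 0 were apart between the days in either direction, beside 29.1% of all genes.

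Lama3 and Lamb3, which encode laminin chains of the epithelial basement membrane, were higher in both day 8 libraries. Lama3 was at 4129 and 2942 at day 0 and at 5531 and 9856 at day 8, and Lamb3 at 3473 and 3540 against 4401 and 8622. In each gene the second day 8 library was much the highest, and the log2 difference of Lama3 was 1.08 ± 0.46 (SE, n = 2 against 2), not called. The receptor subunit genes Itga6 and Itgb4 overlapped, at 8030 and 4766 against 8611 and 4624 and at 3653 and 3653 against 3448 and 3755. Cd44, the hyaluronan receptor used to mark invasive tumour cells, was at 17826 and 16154 against 22706 and 26782, a log2 difference of 0.54 ± 0.19 (SE, n = 2 against 2), not called. Over 19 basal genes tested, 6 (31.6%) lay above and 3 (15.8%) below the day 0 range, beside 14.8% and 14.4% of all genes. The list median was 0.029.

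**Figure D4:**
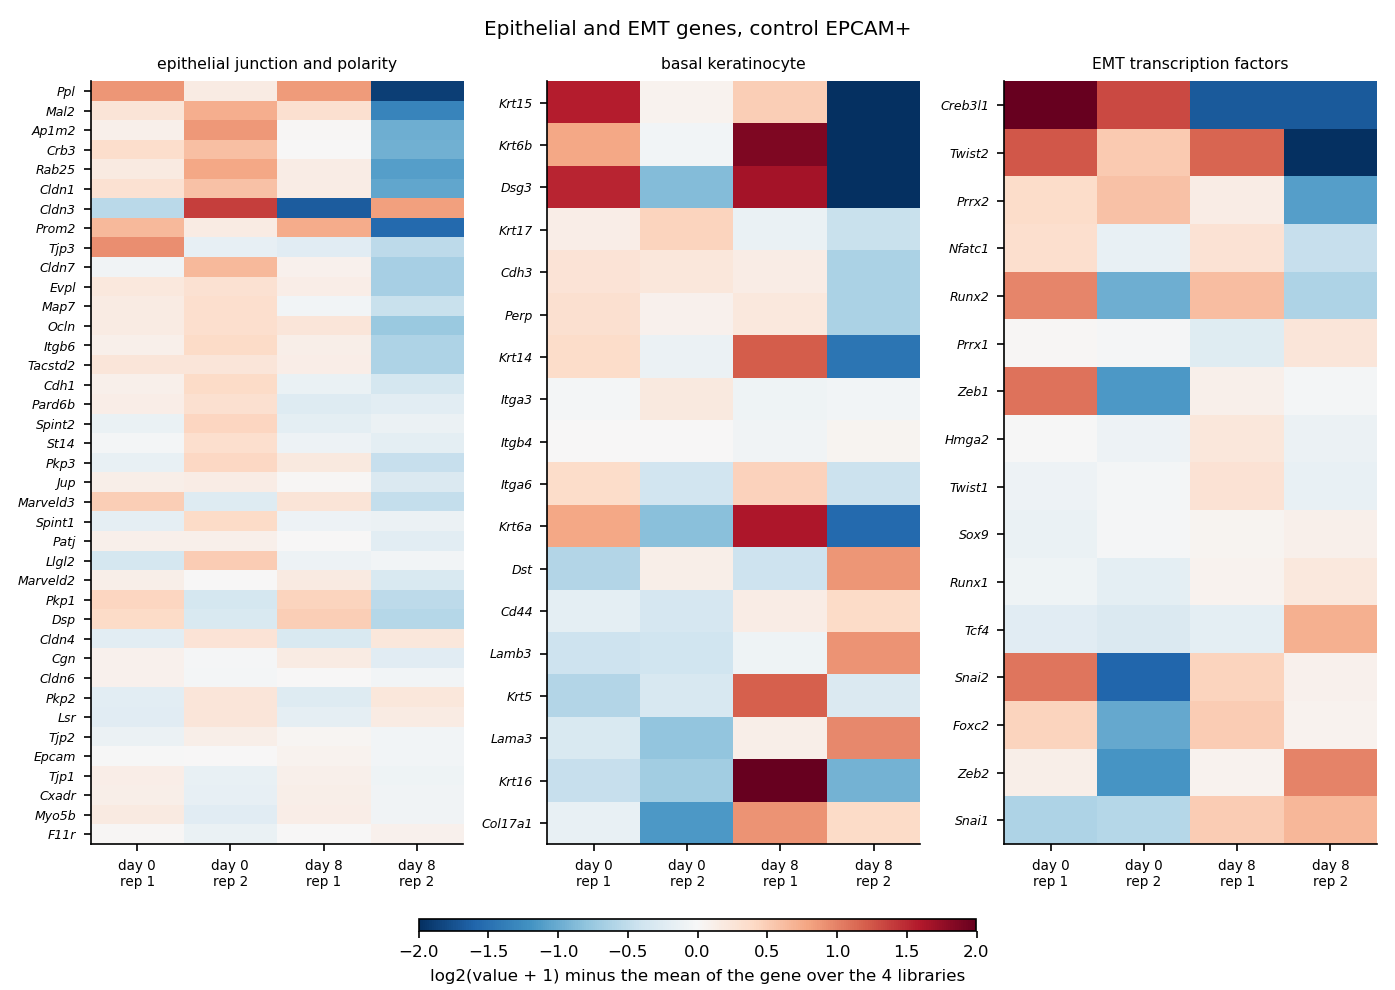
Log2(value + 1) of each gene minus its mean over the 4 libraries (colour, from -2 to 2) for tested genes of epithelial junctions, basal keratinocytes and EMT transcription factors, with 1 column per library and genes ordered by the fitted difference. The second day 8 library is the bluest column of the junction panel, the keratins Krt14, Krt6a and Krt16 have opposite colours in the day 8 columns, and Snai1 has both day 8 columns red and both day 0 columns blue.

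Of 16 EMT transcription factors, all tested, 4 (25.0%) were above the day 0 range in both day 8 libraries and 2 (12.5%) below, beside 14.8% and 14.4% of all genes. Snai1, a zinc finger repressor of E-cadherin, was at 183 and 190 at day 0 and at 402 and 447 at day 8, tight within each day. Its log2 difference was 1.18 ± 0.52 (SE, n = 2 against 2), and it was not called. The SE is pooled over all groups of the series and does not describe these 4 values alone. Over the 20 day 8 libraries Snai1 ranged from 308 to 1251. Zeb2 was at 530 and 217 against 515 and 975, Zeb1 at 121 and 25 against 61 and 55, and Twist1 at 124 and 129 against 162 and 120. These overlap between the days. Runx1, which was at 7540 and 6927 against 8361 and 9242, lay above the day 0 range, and so did Tcf4 (533 and 513 against 546 and 1018) and Sox9 (3395 and 3644 against 3837 and 3969), by less.

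Of 30 genes of the mesenchymal cytoskeleton and matrix tested, 3 (10%) lay above and 4 (13.3%) below the day 0 range. These shares stand beside 14.8% and 14.4% of all genes, and the other 23 overlapped. Vim, which encodes the filament protein vimentin, was at 10710 and 2332 at day 0 and at 9875 and 9745 at day 8, low in 1 day 0 library alone. Fn1, which encodes fibronectin, was at 13787 and 27992 against 10840 and 75764, high in 1 day 8 library alone. Postn, which encodes the matrix protein periostin, was at 264 and 49 against 40 and 3. Col1a2 was at 0 in both day 0 libraries and at 71 and 9 at day 8.

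The TGF-beta and BMP list, 31 genes tested, had a median log2 difference of 0.0049, with 3 (9.68%) above and 6 (19.4%) below the day 0 range. Over all genes these shares were 14.8% and 14.4%. Tgfb1 was at 1060 and 849 at day 0 and at 1078 and 1511 at day 8, and the feedback inhibitor Smad7 at 1845 and 1691 against 1658 and 2615. Ltbp3, which holds latent TGF-beta in the matrix, was at 2254 and 1953 against 1311 and 1500, a log2 difference of -0.58 ± 0.19 (SE, n = 2 against 2), not called. Bmp4, a BMP ligand, was low at 79 and 58 units against 32 and 6, and Fst, which encodes the activin antagonist follistatin, was at 146 and 385 against 126 and 22.

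For targets of YAP and TEAD, which respond to cell shape and density, 6 of 21 tested (28.6%) lay below the day 0 range and 0 above. Over all genes these shares were 14.4% and 14.8%. The list had a median of -0.37. The classic targets Ctgf and Cyr61 overlapped, at 5651 and 7628 against 3070 and 7190 and at 4911 and 7253 against 3274 and 6443. Nuak2, a stress kinase, was at 715 and 891 against 434 and 439, and F3, which encodes tissue factor, at 326 and 580 against 264 and 130. Both were lower in all 20 day 8 libraries than at day 0. Without the second day 0 library the list median was -0.10.

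In the ERK feedback and EGF-family list, 1 of 23 genes tested lay above and 3 (13.0%) below the day 0 range, and the median was -0.046. Over all genes 14.8% lay above and 14.4% below. Dusp6, the phosphatase that restrains ERK, was at 4376 and 4885 at day 0 and at 3751 and 3208 at day 8. Erbb2, a receptor of the EGF family, was at 1643 and 1773 against 1389 and 1137, a log2 difference of -0.44 ± 0.17 (SE, n = 2 against 2), not called. The ligand genes Areg, Hbegf and Tgfa overlapped, with Tgfa at 2332 and 1932 against 2543 and 2188. In the Wnt list 2 of 19 genes tested (10.53%) lay above and 4 (21.05%) below. Lgr4, a receptor for R-spondins, was at 359 and 437 against 191 and 271, and Fzd2, a Wnt receptor, at 1124 and 1419 against 726 and 929. Axin2, the usual readout of canonical Wnt signalling, was at 0 in all 4 libraries, and Lgr5 had 3 to 7 units.

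Cell cycle genes showed small differences. Of 25 S phase genes, 11 (44.0%) lay above the day 0 range and 2 below, beside 14.8% and 14.4% of all genes, but the median log2 difference was only 0.12 and 0 had an unadjusted p below 0.05. Mcm4, a subunit of the replicative helicase, was at 4502 and 4324 at day 0 and at 5260 and 5471 at day 8, and Pcna, the replication clamp, at 6338 and 6634 against 6873 and 7553. The list median was 0.15 in the first and 0.066 in the second pair. Of 25 genes of G2 and mitosis, 5 (20%) lay above and 7 (28%) below, with a median of -0.074. Mki67 was at 10284 and 9240 against 11929 and 12904, and Aurka, a spindle kinase, at 2405 and 3049 against 2049 and 2296.

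Of 25 genes of the unfolded protein response, 8 (32.0%) lay above the day 0 range and 0 below, with a median of 0.078. Over all genes 14.8% lay above and 14.4% below. Dnajb9, a chaperone of the endoplasmic reticulum, was at 222 and 147 at day 0 and at 238 and 553 at day 8, and it was the 1 gene of the list with an unadjusted p below 0.05. Hspa5, the main chaperone of that compartment, was at 19415 and 19351 against 20018 and 21392. Of 24 interferon and antigen presentation genes tested, 10 (41.7%) lay below and 0 above, with a median of -0.31, and of -0.36 and -0.33 within the pairs. As 1 library was left out the median ran from -0.44 to -0.18, nearest 0 without the second day 8 library. Stat2, which carries the interferon signal to the nucleus, was at 211 and 205 against 110 and 93, and Bst2, an antiviral membrane protein, at 508 and 547 against 389 and 220. H2-K1, a class I antigen-presenting gene, was at 3762 and 4071 against 3649 and 3343. Mx1 and Mx2 were at 0 in all 4 libraries and Isg15 reached at most 16 units.

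Ribosomal protein genes had a narrow shift, with 18 of 51 (35.3%) below the day 0 range and 0 above, beside 14.4% and 14.8% of all genes. The list median was -0.17. It was 0.0085 in the first and -0.35 in the second pair, and ran from -0.28 to -0.052 as 1 library was left out. Of 22 genes of NRF2 and glutathione, 6 (27.3%) lay below and 0 above, with a median of -0.26, which was -0.011 and -0.54 within the pairs. Keap1, the sensor that holds NRF2 down, was at 721 and 782 against 616 and 480, and Tkt, a transketolase, at 5909 and 7549 against 5557 and 4480. Of 24 NF-kB targets, chemokines and cytokines tested, 4 (16.7%) lay above and 3 (12.5%) below. Birc3, an inhibitor of apoptosis, was at 90 and 83 against 149 and 139, and Tnfaip3, a brake on NF-kB, at 1192 and 1511 against 966 and 886. In the clock list, 3 of 20 genes tested (15%) lay above and 1 (5%) below. The repressors Nr1d1 and Nr1d2 were at 536 and 287 against 677 and 907 and at 541 and 361 against 543 and 1235, and all 20 day 8 libraries were above day 0 for both, while Per2, Dbp and Arntl overlapped. For Nr1d2 the lowest day 8 library, at 543, lay less than 1 read above the higher day 0 library, at 541. The labels give no hour of collection.

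**Figure D5:**
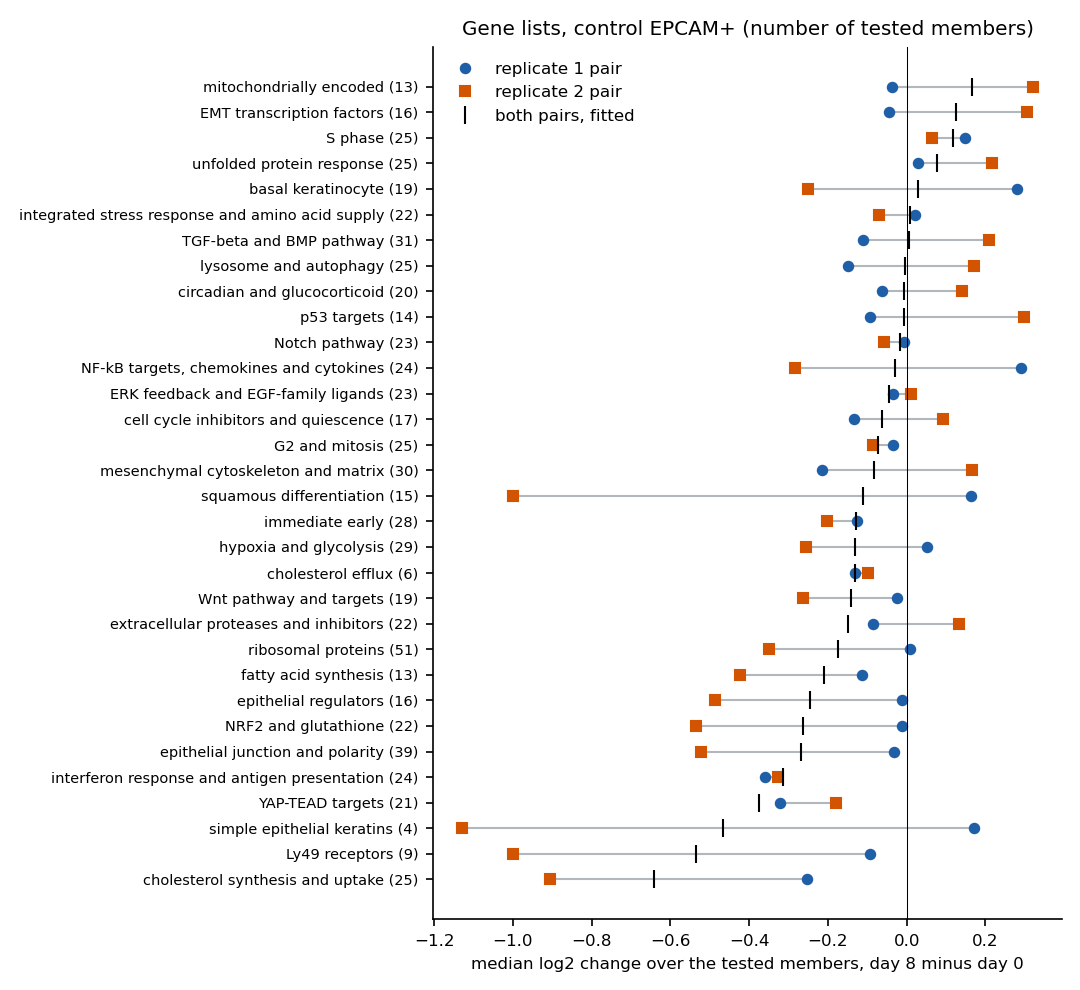
Median log2 change from day 0 to day 8 over the tested genes of each list (number in brackets), fitted over both pairs (black bar) and within the first (blue circle) and second (orange square) same-numbered pair. Cholesterol synthesis and uptake is lowest, at -0.64, with its pairs at -0.25 and -0.91; interferon genes have pairs close together at -0.36 and -0.33, and squamous differentiation genes have pairs on either side of 0.

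Most of the largest differences upward were in genes of low level, and only Hes1 and Nr4a2 among them were called in any fit named above. Camk1g, a calmodulin-dependent kinase, was at 29 and 16 normalised read counts at day 0 and at 100 and 141 at day 8, a log2 difference of 2.41 ± 0.58 (SE, n = 2 against 2; limma adjusted p = 0.504). Rhov, a small GTPase, was at 34 and 62 against 311 and 149, and Il1rl1, which encodes the receptor of interleukin 33, at 12 and 19 against 32 and 176. Hoxb9, a homeobox factor, was at 59 and 92 against 131 and 423, and Pthlh, which encodes parathyroid hormone-related protein, at 760 and 202 against 1065 and 780. The other genes among the 15 highest by the naming rule were Zfp979, Lrrc4, Pitpnm2os2, Glrp1, Gng3, Tenm4, Mir3535 and Slc23a1, beside Hes1 and Nr4a2. Tenm4, a teneurin of cell adhesion, was at 261 and 126 against 288 and 753. Mir3535 shares 83 of its 147 exon bases with Ncl and 80 with Gm24148, a small nucleolar RNA gene, both on the same strand. Gm24148 was at 20 and 28 at day 0 and at 53 and 49 at day 8. Reads of these genes may be shared. Gng3 shares 398 exon bases with Bscl2 on the opposite strand. Among the 5 genes of smallest p were 3 of very low level, listed at 0 in both day 0 libraries: Gm6900 was at 14 and 19 at day 8, Gm43600 at 14 and 11, and the collagen gene Col23a1 at 8 and 11, with limma adjusted p of 0.0659, 0.0659 and 0.0763, so none was called. Gm43600 shares all of its 223 exon bases with Katnal1 on the opposite strand, so reads of these genes may be shared. Katnal1 was at 508 and 476 at day 0 and at 408 and 750 at day 8.

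Among the largest differences downward, Myh14, a non-muscle myosin heavy chain of epithelia, was at 1904 and 2441 at day 0 and at 1214 and 163 at day 8. Its log2 difference was -2.27 ± 0.94 (SE, n = 2 against 2), not called, and the second day 8 library was far under the first. Timp3, an inhibitor of matrix proteases, was at 1612 and 6011 against 1141 and 842, and the second day 0 library stood far above the rest. Syn3, which shares 1733 exon bases with Timp3 on the opposite strand, followed it at 690 and 2329 against 452 and 388, and reads of the 2 genes cannot be told apart here. Scnn1a, a subunit of the epithelial sodium channel, was at 410 and 428 against 295 and 63, and Sh3rf2 at 141 and 254 against 61 and 60. The 15 lowest also included Arhgap6, Prkaa2, Zc3h6 and Sgpp2, beside Lpl, Postn, Bmp4, Gadd45g and Arc.

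To set these values beside other cells of the same day, the mean of the 4 knockout EPCAM+ groups at day 8 was compared with the same day 0 libraries. In that comparison day and knockout cannot be told apart, and it shares its day 0 libraries with the one above, so the 2 are given side by side and not as support for each other. The test called 228 genes (1.17%), of which 139 rose (0.71%) and 89 fell (0.455%), and 10 were called without the second and 142 without the first day 0 library. Without 1 knockout library the count fell to 79 (first Creb3l1), 115 (first Klf5) or 118 (second Pitx1). Of the 228 calls 61.0% were higher, against 23.0% of 261 in the voom fit and 46.9% of 209 with a pseudocount of 5. With the sample number as a block it called 1104 genes. Hes1 rose with a log2 difference of 1.59 ± 0.19 (SE; limma adjusted p = 0.000874), Nr4a2 rose by 1.47 ± 0.21 (limma adjusted p = 0.0042) and Gadd45g fell by 1.92 ± 0.26 (limma adjusted p = 0.00287). In control cells these differences were 1.50, 1.72 and -1.87, as above.

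The largest calls of that comparison are given beside the control day 8 values. Cnfn fell by 6.49 ± 1.34 (SE; limma adjusted p = 0.0355) in the knockout mean, from 819 and 714 at day 0 to 0 to 80 over the 8 libraries (median 6.5), while 1 control day 8 library was at 917 and the other at 47. Cldn3, a tight junction claudin, fell by 5.75 to between 0 and 16, while control day 8 libraries held 58 and 331, and S100a14, a calcium-binding protein of epithelia, fell by 5.11 to between 0 and 56, with 481 and 30 in the control. Krt6a fell by 4.76 to between 5 and 92, and Gpc4, a glypican, fell by 5.02. The limma adjusted p of these 4 was between 0.00287 and 0.0358. Ephb2, a receptor for ephrin-B ligands, rose by 2.83 to between 337 and 1791, with 76 and 407 in control day 8 cells (limma adjusted p = 0.0249), and the voom fit ended its call (adjusted p = 0.0706). Muc16, a membrane mucin, rose by 2.64 to between 218 and 399, with 71 and 160 in control day 8 cells. Efcc1 rose by 2.29 to between 17 and 104, with 19 and 33 in the control. Apol8 and P4ha3 rose by 2.52 and 2.26, to between 39 and 137 and between 49 and 166, with 19 and 60 and with 53 and 57 in the control, and both calls were lost in the voom fit (adjusted p of 0.221 and 0.234). For Cnfn, S100a14, Gpc4, Ephb2 and Apol8 1 control day 8 library lay inside the knockout range, and for Efcc1 and P4ha3 both did. Of the cholesterol list 0 genes were called in the knockout mean, and its median log2 difference there was -0.44. Whether knockout and control cells differ in any of these was not tested here.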

How the data were processed

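Values per gene and library came from a deposited file that holds all 22 libraries. FastQC, Trimmomatic, STAR, Picard, HTSeq and GRCm38/mm10 are named without versions per the submitters' processing notes. Its values were read as a score: the labels call them normalised counts, and in the deposited columns 99.8 to 99.9% of values above 0 were whole multiples of a fixed step, rounded up, so they are taken as reads scaled by the authors to totals of 20007331 to 20014236. Recovered depth was 6054918 to 9882692 reads in genes over the 22 libraries. Of 49671 genes, 49412 (99.5%) matched GENCODE M21.

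The 19569 genes that reached 10 in 2 or more libraries entered limma 3.58.1 (R 4.3.3) on log2(value + 1), 1 mean per group over 22 libraries, with trend and robust options (residual degrees of freedom 11, prior 5.63 at the median) and Benjamini-Hochberg adjustment across all genes; a gene was called below 0.05. Fold changes are on that scale, which understates low genes; folds of means use the values themselves. The scripts were tested on simulated data. Tables were prepared with pandas 2.3.3, numpy 2.4.6 and scipy 1.17.1 in Python 3.11.15; figures were drawn with matplotlib 3.10.9.

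Libraries were paired by the sample number in their labels. Over 55 pairs of groups, same-numbered deviations correlated with a median of 0.15 (lowest -0.13, highest 0.38). Of these correlations 36 were over 0.1, and day 0 with day 8 gave 0.18. The genes named were Epcam and the knocked-out genes; the 15 largest rises and falls among genes with a mean of at least 50, groups apart, an unadjusted p below 0.05 and both pairs in 1 direction, without predicted genes; every gene called; the 5 of smallest p; up to 4 genes of unadjusted p below 0.05 per list (8 for the cholesterol, Notch and immediate early lists); and the 5 largest called rises and falls of the knockout mean. Other list members are given as illustration, chosen after their values were seen, and some items are not reported here. Members and lists were chosen with earlier results of these data known. Recovered depth limits single values to steps of 1 read, and spread between libraries adds to that counting error.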

Additional observations from a re-analysis of the deposited data

How the results depend on the processing

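The count of 0 genes for day 8 against day 0 became 2 with the sample number as a replicate block (the same pairing gave 1104 in place of 228 genes for the knockout mean), 7 with a pseudocount of 0.5, 2 with no filter on low values, and 1 (Hes1) in limma's voom fit on recovered reads with the block, an alternative chosen after seeing the data; voom with the block gave 1055 genes for the knockout mean. It stayed 0 with only the 4 libraries, with or without the block, a pseudocount of 5, a minimum of 50, voom, TMM scaling and a prior without the robust option. Leaving out 1 library gave 0 to 3 genes (P3h3, Vim and Gm23134 without the first day 0 library, Ccdc62 without the second day 8 library), and 10 to 273 for the knockout mean: 10 without the second and 142 without the first day 0 library, 79 without the first Creb3l1, 115 without the first Klf5 and 118 without the second Pitx1 knockout library. The share of higher calls for the knockout mean, 61.0% in the main fit, was 23.0% with voom, 46.9% with a pseudocount of 5 and 51.2% with no filter. The adjusted p of Hes1 and Nr4a2 was at least 0.0259 and 0.0281 over their alternatives and up to 1 with only the 4 libraries. Of 68 named genes 65 kept their direction over 15 alternatives; Epcam (-0.059 to 0.069), Nfatc1 (-0.55 to 0.19) and Klf5 (-0.30 to 0.46) changed sign when 1 library was left out. Of 37 list medians 15 kept their sign and 22 did not (among them fatty acid synthesis, basal keratinocyte, EMT factors, ERK, Notch, and TGF-beta and BMP); those that kept it include cholesterol between -0.97 and -0.33 and junctions between -0.49 and -0.13. The cause of these differences was not tested. The planned count tests were not run, because the deposited values are rounded up and not read counts. With 2 libraries a day and a median SE of 0.39 on the log2 scale over all genes tested (0.27 where the higher group averaged 50 or more), small differences were not detectable.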

Other observations

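Besides the genes above, some of those with all 20 day 8 libraries on 1 side of day 0 were not part of any list and are named here after their values were seen; all share the 2 day 0 libraries and none was called by limma in control cells, while Rnd3 and Sp4 were called in the knockout mean. Rnd3, an atypical small GTPase, was at 1640 and 1541 normalised read counts at day 0, at 948 and 956 in control EPCAM+ cells at day 8, and at 655 to 1383 over all day 8 libraries. Padi1, a peptidylarginine deiminase of the epidermis, was at 670 and 592 at day 0 and at 267 and 225 at day 8. Trpv4, a calcium-permeable channel, was at 1410 and 1438 against 971 and 680, and Bcam, a laminin receptor, at 410 and 354 against 254 and 106. Ivd, a mitochondrial enzyme of leucine breakdown, was at 1492 and 1517 against 1065 and 758. In the other direction, Sp4, a zinc finger factor, was at 174 and 162 at day 0 and at 311 and 285 at day 8, and Bag3, a co-chaperone, at 794 and 718 against 911 and 1240.

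The 9 Ly49 receptor genes tested, which lie in a cluster of near-identical copies and whose counts are uncertain for that reason, had a median log2 difference of -0.53. Klra8, the highest of them, was at 323 and 342 at day 0 and at 303 and 109 at day 8. Whether these reads come from the Klra genes themselves was not tested.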
